A study of Mus musculus with 7 samples.

Results

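A group of 7 genes of an innate signalling route were followed in the transcriptomes of mouse megakaryocyte progenitors (MkPs), the committed precursors of the megakaryocytes that shed platelets. The genes were Tifab, Tifa, Traf6, Irak1, Irak4, Myd88 and Alpk1, 7 of the 21615 genes in the count table, and all 7 were found by symbol and carried enough counts to be tested. They were picked as a group with Tifab already known to differ between the MkP subsets compared here, so the level of each gene in this contrast is given as a description and without a test.

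Bulk RNA-seq libraries were available for both MkP subsets of wild type C57BL/6 mice, 4 for CD48hi and 3 for CD48-/lo cells, all from bone marrow and with no treatment listed. The sort for both kept CD150+ CD41+ cells that carried CD117 but neither lineage markers nor Sca-1, and the subsets differed in the gate on surface CD48, a SLAM family protein. The study assigns each subset its own route of platelet generation, and the comparison asks how their transcripts differ. The labels do not say whether each library came from its own mouse, and p-values below measure the spread between these libraries, which may be technical. The age of the mice is not given in the labels.

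Total counts ran from 48899037 to 69324909 per library. Between 14033 and 20826 cells went into a CD48hi library and between 5348 and 6497 into a CD48-/lo library, so cell number and subset cannot be told apart. Mitochondrially encoded genes took 0.138% to 0.40% of the counts of a CD48hi library, against 2.61%, 0.482% and 2.91% for replicates 1, 3 and 4 of the CD48-/lo subset, and the part of this in the values below was not tested. The 8 genes checked for the megakaryocyte identity of the sort, among them Itga2b (CD41), Kit (CD117) and Pf4, were counted in all 7 libraries. None was called at an adjusted p of 0.05 by edgeR, but only 0.192% of all tested genes were. Equal levels cannot be read from this. Log2 differences (CD48-/lo minus CD48hi) were positive for 6 and negative for 2. Pf4 had 1.00 ± 0.44 and Vwf 0.66 ± 0.26, against -0.70 ± 0.30 for Itga2b and -1.27 ± 0.49 for Gp1bb (± SE). For Vwf the groups did not overlap.

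MYD88 is the adaptor that most Toll-like receptors and the IL-1 receptor family recruit. It gathers the kinases IRAK4 and IRAK1, which engage the ubiquitin ligase TRAF6, and TRAF6 activates TAK1, the IKK complex and NF-kB. ALPK1 is a kinase that senses the bacterial sugar ADP-heptose and phosphorylates TIFA, whose assemblies also engage TRAF6, while TIFAB is a TIFA-related protein known to lower TRAF6 protein and its signalling in blood stem and progenitor cells.

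The genes lie on 6 chromosomes (mm10 coordinates as in the count table). Tifab (ENSMUSG00000049625) spans chromosome 13, 56173704 to 56178885, and is on the minus strand. Tifa (ENSMUSG00000046688) spans chromosome 3, 127789805 to 127832164, on the plus strand, and Alpk1 (ENSMUSG00000028028) lies beside it at 127670310 to 127780527 on the minus strand, with 9277 bases between the start of Tifa and the nearest end of Alpk1. Traf6 (ENSMUSG00000027164) spans chromosome 2, 101678429 to 101701669. Irak1 (ENSMUSG00000031392) is on chromosome X, 74013914 to 74023918, Irak4 (ENSMUSG00000059883) on chromosome 15, 94543643 to 94581815, and Myd88 (ENSMUSG00000032508) on chromosome 9, 119335934 to 119341411. Tifab and Traf6 overlap no other annotated gene (GENCODE M21). The other 5 do, and because no source used here states whether strand was used in counting, reads of opposite-strand partners cannot be told apart in the overlaps. Overlaps were taken between whole gene spans, introns included.

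The 250 bases before each transcription start were taken from RefSeq (GRCm38.p6), and 7 of 7 genes matched. Those of Tifab and Traf6 are shown because the first gene had no count in one subset and the second encodes the ligase on which the route converges, and those of the neighbours Tifa and Alpk1 because their starts face away from each other on chromosome 3. Capitals mark each CG dinucleotide, which reads the same on both strands. The windows are chr13:56178886-56179135 (minus strand), chr3:127789622-127789871 (plus), chr3:127780528-127780777 (minus) and chr2:101678170-101678419 (plus).
Tifab: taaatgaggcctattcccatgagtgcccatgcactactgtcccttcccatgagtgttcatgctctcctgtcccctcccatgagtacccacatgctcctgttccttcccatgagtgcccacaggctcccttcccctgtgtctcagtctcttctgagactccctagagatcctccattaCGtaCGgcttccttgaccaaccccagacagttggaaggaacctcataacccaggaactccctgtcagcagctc
Alpk1: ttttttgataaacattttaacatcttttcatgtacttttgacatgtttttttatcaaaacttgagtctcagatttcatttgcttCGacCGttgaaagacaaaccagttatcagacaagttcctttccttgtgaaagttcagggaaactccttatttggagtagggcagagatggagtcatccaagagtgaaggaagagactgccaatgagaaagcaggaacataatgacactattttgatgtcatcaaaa
Tifa: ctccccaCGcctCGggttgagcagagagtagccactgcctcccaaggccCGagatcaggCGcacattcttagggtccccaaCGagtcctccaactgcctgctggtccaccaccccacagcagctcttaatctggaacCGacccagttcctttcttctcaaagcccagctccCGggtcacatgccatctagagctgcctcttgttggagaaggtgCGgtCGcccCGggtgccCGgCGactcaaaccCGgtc
Traf6: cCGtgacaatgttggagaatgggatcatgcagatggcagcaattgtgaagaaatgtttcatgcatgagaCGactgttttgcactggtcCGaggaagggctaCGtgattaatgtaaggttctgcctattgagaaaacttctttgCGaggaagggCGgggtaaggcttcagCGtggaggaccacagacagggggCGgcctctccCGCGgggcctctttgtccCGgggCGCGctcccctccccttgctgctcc

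The windows of Tifab and Alpk1 each held 2 CG dinucleotides, and 29% of the 32851 RefSeq windows of this length held that many or fewer. The windows of Tifa and Traf6 each held 13, Irak1 and Irak4 each 14, and Myd88 9, against a median of 6 over all windows, of which 92.1% held at least 1. The GC content was 54.4% before Tifab, 35.6% before Alpk1 and 62.0% before Tifa. The RefSeq start coincided with the start in the count table for Tifab, Alpk1 and Irak1, lay 9 to 67 bases away for Traf6, Irak4 and Tifa, and 1393 bases away for Myd88. No 8-base word occurred more than 4 times in the Tifab window, and the longest word with 4 copies was the 10-base TCCCATGAGT. The word was chosen from this window, and 0.0396% of all windows held it on either strand. The 1 window of 32851 that held it at least 4 times was that of Tifab itself. These counts describe the letters and no binding was measured.

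**Figure D1:**
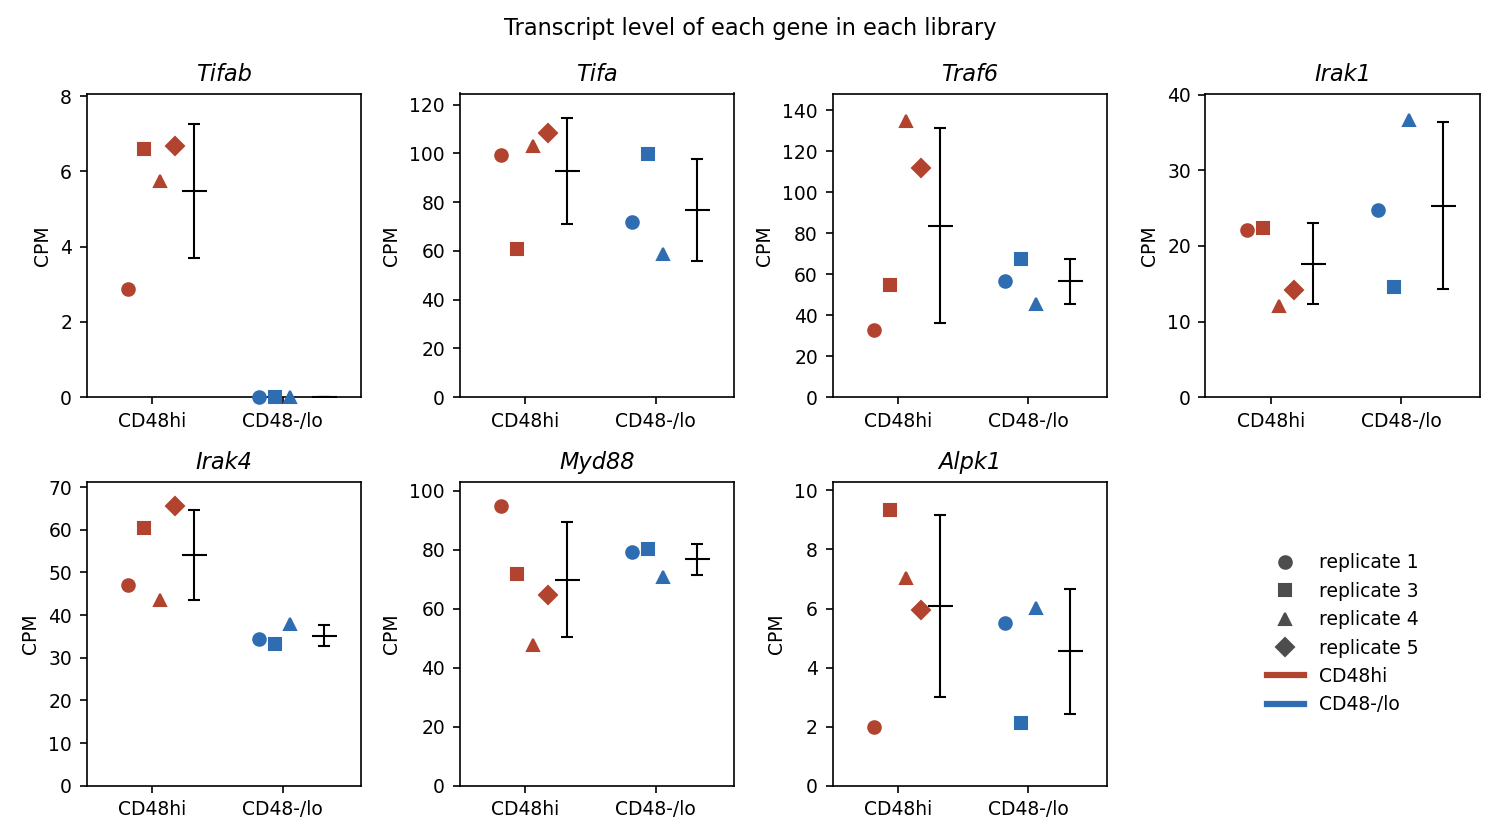
Level of each gene in CPM (each count put on the scale of a common library size with TMM factors) in the 4 CD48hi and 3 CD48-/lo libraries, with marker shape for the replicate number and black bars for mean ± SD. Tifab has 0 counts in the 3 CD48-/lo libraries, Irak4 is the other gene whose groups do not overlap, and the groups of the remaining 5 genes overlap.

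Tifab transcripts were counted in each CD48hi library and in no CD48-/lo library, while the other 6 genes were counted in all 7 libraries. The CD48-/lo mean lay below the CD48hi mean for Tifa, Traf6, Irak4 and Alpk1 and above it for Irak1 and Myd88. The log2 differences of these 6 genes (all CD48-/lo minus CD48hi) stayed within 1. The median over the 7 genes was -0.42, against 0.03 over all 16653 genes tested. In the fit across all genes, 1 of the 7 genes, Tifab, was called as lower in CD48-/lo MkPs at an adjusted p of 0.05, where 0.108% of all genes were called lower, 0.0841% higher and 0.192% in either direction. The contrast served to choose the genes, so nothing is read from this count. It was 0 of 7 without CD48hi replicate 3. The groups did not overlap for 2 of 7 genes, both lower in CD48-/lo MkPs, against 7.06% of all genes lower and 7.52% higher.

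Tifab was at 2.88, 6.60, 5.74 and 6.67 CPM in CD48hi replicates 1, 3, 4 and 5 and at 0 in CD48-/lo replicates 1, 3 and 4. Replicate 1 was the lowest of the CD48hi libraries. These levels stood for 187, 359, 298 and 411 counts, 1255 in all, with a mean of 5.47 ± 1.78 CPM (SD, n = 4). Set against the limit of 3 counts over the CD48-/lo group, Tifab was at least 265-fold higher in CD48hi MkPs, a bound that covers counting error alone. In these bulk samples fewer cells of a type and less RNA per cell cannot be told apart.

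A complete lack of counts was uncommon among the tested genes. In all, 65 genes, 0.390% of those tested, had 0 counts in the 3 CD48-/lo libraries, and 10 had 0 counts in the 4 CD48hi libraries. Such genes passed the filter on low counts only through the group where they were counted, and the groups differ in library number. The counts of 65 and 10 are therefore not compared. Of the 65, Tifab had the most CD48hi counts, followed by Il10ra, a subunit of the receptor for the anti-inflammatory cytokine IL-10, with 852. The secreted matrix gene Cilp2 had 625. These were also the 3 genes of the 65 above 1 CPM in every CD48hi library.

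TIFA, the partner that TIFAB resembles, was transcribed in both subsets. Tifa was at 99.4, 60.7, 102.9 and 108.3 CPM in CD48hi replicates 1, 3, 4 and 5 and at 71.8, 99.8 and 58.7 CPM in CD48-/lo replicates 1, 3 and 4. The groups overlapped, with CD48hi replicate 3 nearly as low as the lowest CD48-/lo library. The means were 92.8 ± 21.7 CPM (SD, n = 4) and 76.8 ± 21.0 CPM (SD, n = 3), a log2 difference of -0.27 ± 0.31 (SE). Ap1ar, which overlaps 25158 bases of Tifa on the opposite strand, was at 10.2 to 30.7 CPM in the CD48hi and 11.0 to 25.9 CPM in the CD48-/lo libraries.

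ALPK1 acts upstream of TIFA. Alpk1 was at 1.99, 9.34, 7.05 and 5.96 CPM in the CD48hi libraries and at 5.50, 2.12 and 6.02 CPM in the CD48-/lo libraries. One library of each subset, CD48hi replicate 1 and CD48-/lo replicate 3, was low, and the groups overlapped. The means were 6.08 ± 3.07 CPM (SD, n = 4) and 4.54 ± 2.12 CPM (SD, n = 3), with a log2 difference of -0.42 ± 0.55 (SE). The highest CD48hi library was 4.69 times the lowest.

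TRAF6, where the ALPK1 and MYD88 arms meet, had the widest absolute spread in CD48hi MkPs. Traf6 was at 32.8, 54.9, 134.6 and 111.6 CPM in the CD48hi libraries and at 56.5, 67.5 and 45.7 CPM in the CD48-/lo libraries. The CD48-/lo values all lay inside the CD48hi range, in which replicates 4 and 5 were high and replicate 1 was low, a ratio of 4.10 from highest to lowest. The means were 83.5 ± 47.6 CPM (SD, n = 4) and 56.6 ± 10.9 CPM (SD, n = 3), and the log2 difference was -0.56 ± 0.45 (SE). CD48hi replicate 1 was thus the lowest CD48hi library for Tifab, Alpk1 and Traf6.

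MYD88 feeds the IRAK kinases. Myd88 was at 94.9, 71.9, 47.8 and 64.6 CPM in the CD48hi libraries and at 79.2, 80.4 and 70.8 CPM in the CD48-/lo libraries. The CD48-/lo values lay inside the CD48hi range. The means were 69.8 ± 19.5 CPM (SD, n = 4) and 76.8 ± 5.22 CPM (SD, n = 3), and the log2 difference was 0.14 ± 0.29 (SE). Its sign was not stable, being -0.01, -0.00 or -0.05 when CD48hi replicate 4, CD48-/lo replicate 1 or CD48-/lo replicate 3 was left out. Acaa1a, a peroxisomal thiolase that shares 1736 bases with Myd88 on the opposite strand, was at 81.2, 52.5, 166 and 133 CPM in CD48hi and 44.2, 50.5 and 44.0 CPM in CD48-/lo libraries. Slc22a14 shares 5478 bases with Myd88 on the same strand. The part of either gene in the Myd88 values was not tested.

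IRAK4 is the kinase that MYD88 recruits first. Irak4 was at 47.1, 60.5, 43.5 and 65.5 CPM in the CD48hi libraries and at 34.3, 33.2 and 37.9 CPM in the CD48-/lo libraries. Each CD48-/lo library lay below each CD48hi library. The means were 54.1 ± 10.5 CPM (SD, n = 4) and 35.1 ± 2.49 CPM (SD, n = 3), a log2 difference of -0.62 ± 0.27 (SE). Twf1 shares 3865 bases with Irak4 on the opposite strand and was at 6.82 to 25.1 CPM in CD48hi and 9.56 to 18.7 CPM in CD48-/lo libraries.

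IRAK1, the kinase that IRAK4 activates, had the reverse order of means. Irak1 was at 22.1, 22.3, 12.1 and 14.1 CPM in the CD48hi libraries and at 24.8, 14.6 and 36.7 CPM in the CD48-/lo libraries. The groups overlapped, since CD48-/lo replicate 3 was lower than 2 CD48hi libraries. The means were 17.7 ± 5.33 CPM (SD, n = 4) and 25.3 ± 11.1 CPM (SD, n = 3), and the log2 difference was 0.52 ± 0.38 (SE).

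**Figure D2:**
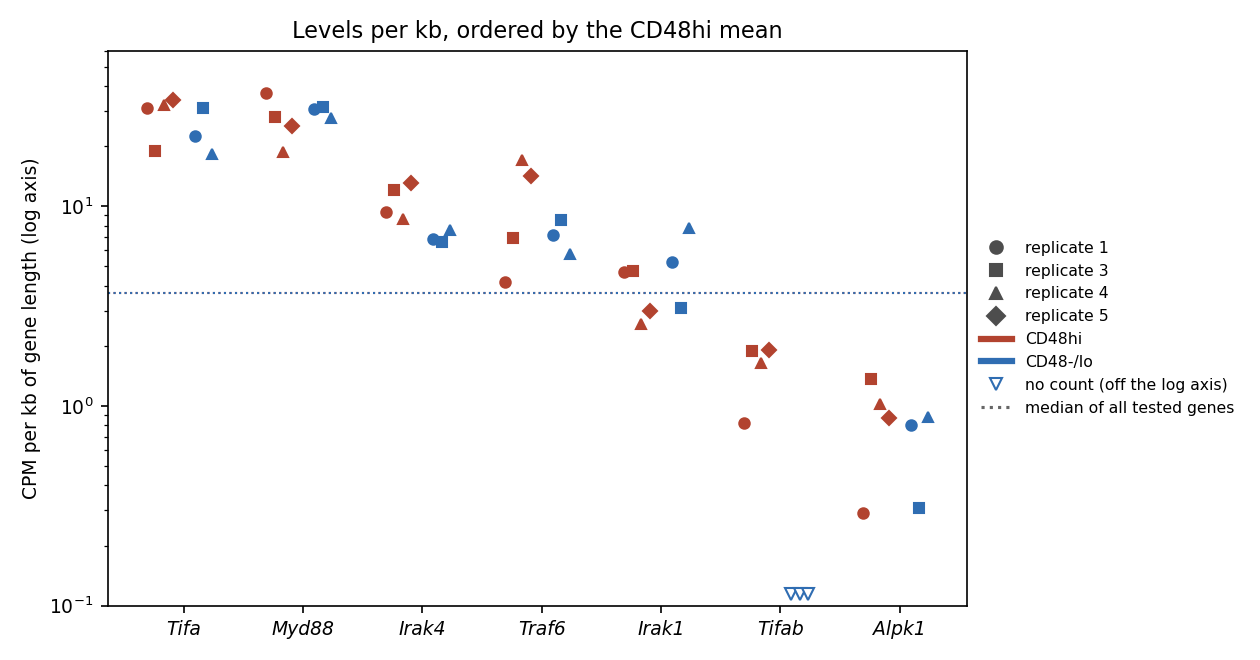
Level per kb of gene length (CPM per kb, log axis) in each library, with genes ordered by their CD48hi mean and dotted lines at the median of all tested genes in each subset. Tifa and Myd88 lie highest in both subsets and Alpk1 lies below the median line in all 7 libraries, while open triangles mark the 3 CD48-/lo libraries with no Tifab count.

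Levels of different genes were compared per kb of gene length. In CD48hi MkPs the order of the levels was Tifa (29.0 ± 6.79 CPM per kb), Myd88 (27.1 ± 7.57), Irak4 (10.8 ± 2.10), Traf6 (10.6 ± 6.03), Irak1 (3.74 ± 1.13), Tifab (1.57 ± 0.508) and Alpk1 (0.886 ± 0.447). In CD48-/lo MkPs it was Myd88 (29.8 ± 2.03 CPM per kb), Tifa (24.0 ± 6.56), Traf6 (7.18 ± 1.39), Irak4 (7.0 ± 0.496), Irak1 (5.37 ± 2.34), Alpk1 (0.662 ± 0.309) and Tifab at 0. Tifa and Myd88 differed by less than the larger of their SDs in both subsets, and so did Irak4 and Traf6, as well as Irak4 and Irak1 in CD48-/lo MkPs. The other neighbours in each order differed by more. The adaptor genes of both arms were the most abundant transcripts per length, and the sensor kinase gene Alpk1 the least abundant of the 6 genes counted in every library.

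The median tested gene was at 3.66 CPM per kb in CD48hi and 3.67 CPM per kb in CD48-/lo MkPs. The Tifa level was at or above that of 83.3% of tested genes in CD48hi MkPs, and the Myd88 level of 82.4%. Tifab itself was a transcript of modest level where it was counted, at or above 36.7% of tested genes in CD48hi MkPs. Tifa exceeded Tifab per kb in each CD48hi library, with ratios of 37.7, 10.1, 19.6 and 17.7 in replicates 1, 3, 4 and 5. The ratio of Tifa to Traf6 per kb was 7.46, 2.72, 1.88 and 2.39 in the CD48hi libraries and 3.13, 3.64 and 3.17 in the CD48-/lo libraries, so Tifa was the higher of the pair in all 7. Irak4 exceeded Irak1 per kb in 6 of 7 libraries, with ratios of 2.00, 2.55, 3.39 and 4.36 in CD48hi and 1.3, 2.14 and 0.972 in CD48-/lo libraries.

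**Figure D3:**
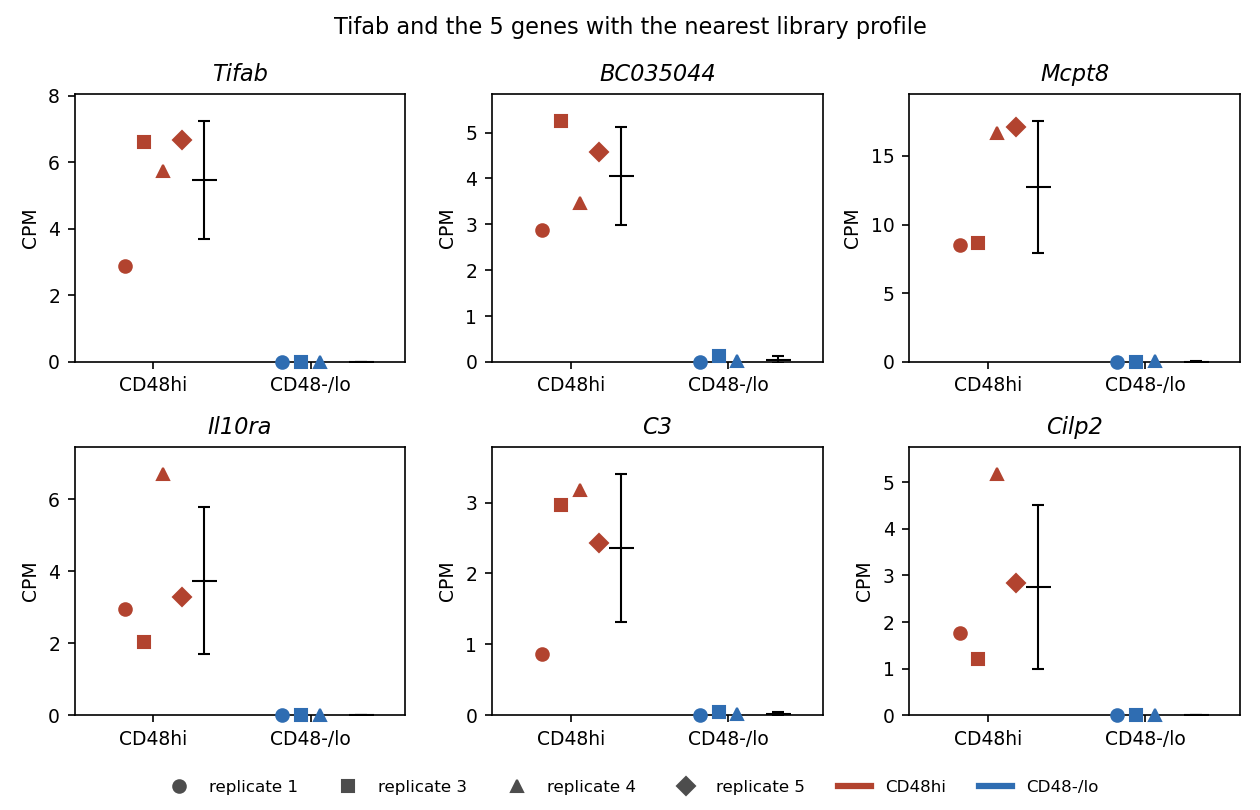
CPM of Tifab and of the 5 genes whose profile over the 7 libraries was nearest to it, with marker shape for the replicate number and black bars for mean ± SD. Each gene is counted in every CD48hi library, and in the 3 CD48-/lo libraries together has between 0 and 8 counts.

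The genes whose pattern over the 7 libraries was most like that of Tifab were found by the root mean square difference of centred log2(CPM + 0.1) profiles. They were BC035044 (0.593), Mcpt8 (0.634), Il10ra (0.653), C3 (0.785) and Cilp2 (0.821). The fall to few or no counts in the CD48-/lo libraries makes up most of such a profile, and that contrast also served to choose Tifab. The list is a description, and nothing about shared control or shared cells is read from it. Mcpt8 is a granule protease of basophils and C3 the central complement component. Each lies on a chromosome other than that of Tifab. Mcpt8 was at 8.51, 8.67, 16.7 and 17.1 CPM in the CD48hi libraries and had 0, 0 and 3 counts in the CD48-/lo libraries. Il10ra was at 2.96, 2.02, 6.70 and 3.28 CPM in the CD48hi libraries and had no count in the CD48-/lo libraries. BC035044 had 935 counts in CD48hi and 8 in CD48-/lo libraries, and C3 had 532 and 3. Within CD48hi MkPs these genes differed in which library was highest, replicate 3 for BC035044, replicate 4 for Il10ra, C3 and Cilp2, and replicate 5 for Tifab and Mcpt8.

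Markers of other blood cells moved with the subsets in the same libraries. The summed level of 15 monocyte and dendritic cell markers was 96.4 to 161 CPM in CD48hi and 44.4 to 57.7 CPM in CD48-/lo libraries, with 10 of 13 tested markers lower in CD48-/lo MkPs, 2 of them called (Irf8 and Ccr2), and none at 0 in all CD48-/lo libraries. For 12 granule and neutrophil markers the sums were 387 to 565 and 60.8 to 164 CPM, with 6 of 11 lower, 1 called (Mpo), and Ltf at 0 in the CD48-/lo libraries. Most of the CD48hi sum came from Mpo, whose mean was 358 CPM there (n = 4). The log2 difference was positive for 5 of the 11, so the sum does not speak for each marker. Among the 5 were S100a8 (2.81 ± 0.92), S100a9 (2.80 ± 1.48), Camp (1.10 ± 1.12) and Ngp (1.07 ± 1.91, all ± SE). None of these was called, and their groups overlapped. For the 8 basophil, mast cell and eosinophil markers in the table, out of 11 listed, the sums were 61.9 to 165 and 27.3 to 34.5 CPM, with 7 of 8 lower and 1 called (Mcpt8).

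Lymphoid markers, 8 of 12 in the table, summed to 7.47 to 12.8 CPM in CD48hi and 3.58 to 4.41 CPM in CD48-/lo libraries, with Dntt and Cd3g at 0 in the CD48-/lo libraries. The summed level of 10 erythroid markers was 640 to 983 CPM in CD48hi and 1356 to 3044 CPM in CD48-/lo libraries, with 8 of 10 higher in CD48-/lo MkPs, 3 of them called. Car2, a carbonic anhydrase, made up most of the sum, with means of 574 CPM in CD48hi (n = 4) and 1832 CPM in CD48-/lo MkPs (n = 3). The other two had negative log2 differences, Klf1, an erythroid transcription factor, of -0.71 ± 0.36 (SE) and Epor, the erythropoietin receptor, of -0.47 ± 0.27 (SE), and neither was called. The part of these cells in the Tifab values was not tested. Per 100 counts, summed over the CD48hi libraries, there were 20.3 Tifab counts for Irf8, 22.3 for F13a1, 10.5 for Elane, 1.53 for Mpo and 42.6 for Mcpt8. The CD48-/lo libraries held 261 counts of Irf8, 427 of F13a1, 1964 of Elane and 6141 of Mpo, but 3 of Mcpt8, beside 0 of Tifab. These 5 markers are a selection from the lists. Mcpt8 was also among the 5 genes with the profile nearest to Tifab, so its few CD48-/lo counts are no separate result. The other genes of the Mcpt8 list in the table had from 78 counts (Prss34) to 1637 (Fcer1a) in the CD48-/lo libraries. Some rested mainly on a single library, with Epx at 0, 177 and 0 and Prg2 at 22, 1134 and 11 counts in replicates 1, 3 and 4. Fcer1a, alone of that list, had a positive log2 difference, 1.10 ± 0.53 (SE), with overlapping groups and no call. Ccr2 and Cx3cr1 of the monocyte list had 2 and 1 counts in the CD48-/lo libraries, against 647 and 104 in the CD48hi libraries.

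**Figure D4:**
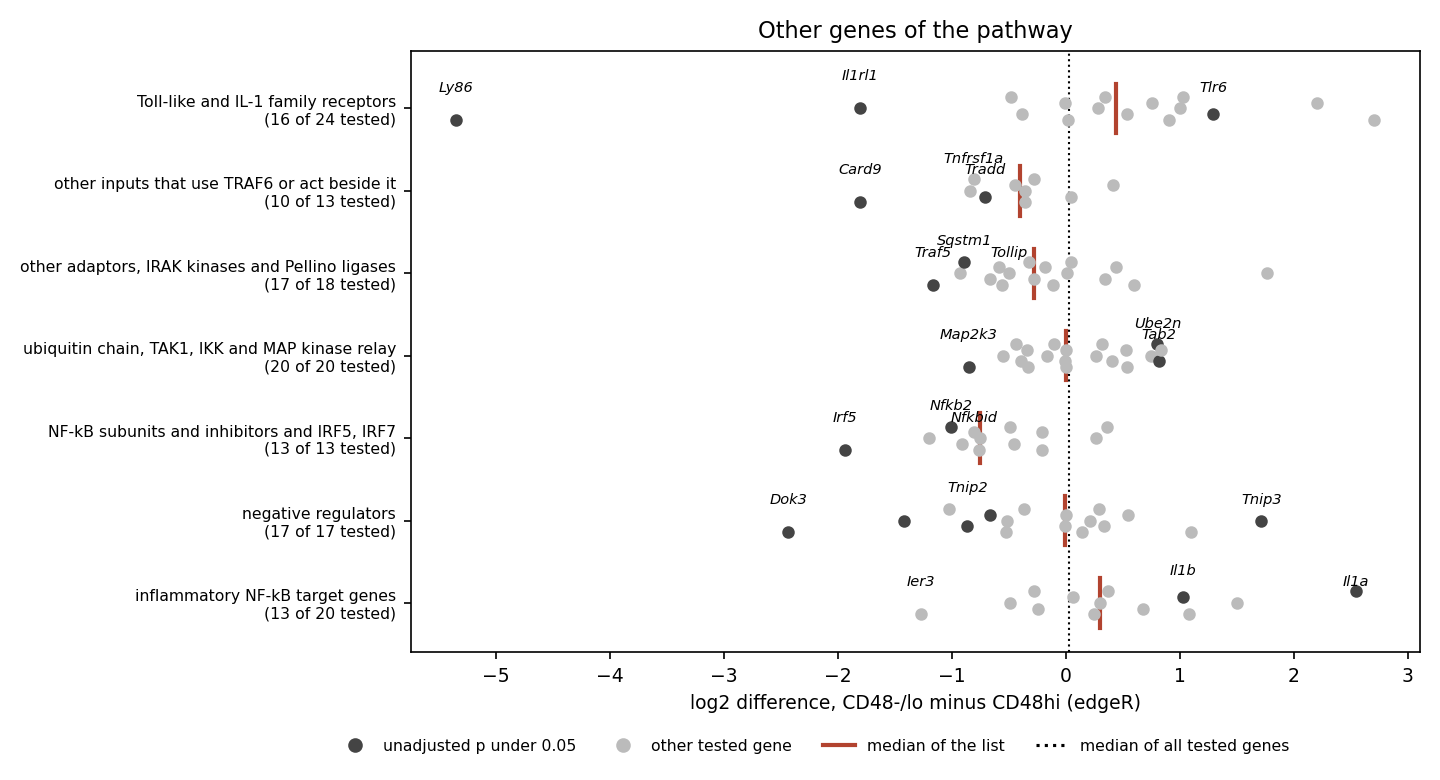
Log2 difference (CD48-/lo minus CD48hi, edgeR) of each tested gene in 7 lists of other pathway genes, with dark points for an unadjusted p under 0.05, red bars for list medians and a dotted line for the median of all tested genes. Names mark the 3 genes of each list with the smallest p. None of the 106 genes passed an adjusted p of 0.05, against 0.192% of all tested genes.

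The rest of the route was read from 7 lists of other genes, 125 in all, of which 115 were in the table and 106 were tested. None of the 106 was called at an adjusted p of 0.05 by the edgeR quasi-likelihood test across all genes. The share called among all tested genes was 0.192%, so a count of 0 does not set these genes apart. At an unadjusted p under 0.05 (edgeR) there were 19, of which 6 lay above and 13 below in CD48-/lo MkPs. Of all 16653 tested genes 17.2% reached it, 1394 above and 1477 below. DESeq2 called 8 of the 106, 2 higher and 6 lower, against 5.52% of all genes with an adjusted p. With limma, voom and library quality weights 4 were called, 1 higher and 3 lower, against 2.36% of all genes. In log2 difference 48 genes were positive and 58 negative with a median of -0.11, against 8609 positive and 8044 negative among all tested genes. The groups did not overlap for 18 genes, 5 with CD48-/lo above CD48hi (4.72%, against 7.52% of all genes) and 13 below (12.3%, against 7.06%), and no test was made of these shares.

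Of 24 Toll-like and IL-1 family receptors and their partners 16 were tested, 11 with a positive and 5 with a negative log2 difference, and the median was 0.44. Ly86 (MD-1), the partner of the Toll-like receptor relative CD180, had 371 counts in CD48hi and 6 in CD48-/lo libraries, with a log2 difference of -5.35 ± 1.10 (SE) and an adjusted p of 0.0797 by edgeR. DESeq2 called it, and CD48hi replicate 3 stood apart at 3.57 CPM from the other CD48hi libraries (0.848 to 1.25 CPM). Its partner gene Cd180 was at 4.16 ± 1.01 CPM (n = 4) and 7.81 ± 3.89 CPM (n = 3). Il1rl1, the IL-33 receptor, was at 11.4 ± 7.69 and 3.26 ± 1.07 CPM, and Tlr6, a receptor for bacterial lipopeptides, at 2.13 ± 1.05 and 5.2 ± 2.94 CPM (adjusted p = 0.240 and 0.259, edgeR).

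Other inputs that use TRAF6 or act beside it numbered 13, with 10 tested, 2 positive and 8 negative and a median of -0.40. Card9, the adaptor of fungal lectin receptors, was at 3.75, 8.22, 6.54 and 7.40 CPM in the CD48hi libraries and 2.05, 1.45 and 2.04 CPM in the CD48-/lo libraries. The groups did not overlap, and the log2 difference was -1.81 ± 0.41 (SE), with an adjusted p of 0.103 by edgeR and a call by DESeq2. Tradd, the adaptor of the TNF receptor, was at 68.9 ± 17.7 and 42.2 ± 8.90 CPM, and Tnfrsf1a, the receptor itself, at 26.7 ± 15.5 and 15.3 ± 5.36 CPM (adjusted p = 0.282 and 0.374, edgeR).

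Further adaptors, IRAK kinases and Pellino ligases had 17 of 18 genes tested, 6 positive and 11 negative, and a median of -0.28. Sqstm1 (p62), a scaffold that binds TRAF6, was at 268 ± 88.6 and 144 ± 21.2 CPM in CD48hi and CD48-/lo MkPs and Traf5, a TRAF6 relative, at 14.2 ± 7.29 and 6.32 ± 1.68 CPM (adjusted p = 0.223 and 0.240, edgeR). Tollip, which restrains IRAK1, was at 236 ± 57.9 and 167 ± 14.4 CPM (adjusted p = 0.365, edgeR).

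All 20 genes of the ubiquitin chain, TAK1, IKK and MAP kinase relay were tested, 11 positive and 9 negative, with a median of 0.00. Ube2n (Ubc13), the conjugating enzyme with which TRAF6 builds its chains, was at 72.3, 120, 50.6 and 61.1 CPM in CD48hi and 141, 121 and 136 CPM in CD48-/lo libraries. The highest CD48hi library fell just short of the lowest CD48-/lo library, and the adjusted p was 0.255 by edgeR. Tab2, a chain-binding partner of TAK1, was at 27.9 ± 7.62 and 49.0 ± 11.9 CPM, and Map2k3, a kinase upstream of p38, at 167 ± 57.0 and 92.7 ± 16.9 CPM (adjusted p = 0.242 and 0.240, edgeR).

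The 13 genes of NF-kB subunits and inhibitors and of IRF5 and IRF7 were 2 positive and 11 negative, with a median of -0.76, the lowest of the 7 lists. Nfkb2, the p100 subunit, was at 9.04, 10.8, 14.1 and 13.2 CPM in CD48hi and 4.05, 7.02 and 6.55 CPM in CD48-/lo libraries. The groups did not overlap, and the log2 difference was -1.01 ± 0.34 (SE), with an adjusted p of 0.211 by edgeR and a call by DESeq2. Irf5, which MYD88 and TRAF6 can activate, was at 4.99 ± 1.43 and 1.3 ± 1.3 CPM, and DESeq2 called it while edgeR did not (adjusted p = 0.211 by edgeR). Nfkbid, a nuclear regulator of NF-kB, was at 9.42 ± 2.11 and 5.37 ± 2.47 CPM (adjusted p = 0.306, edgeR).

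Negative regulators, 17 of 17 tested, were 7 positive and 10 negative with a median of -0.01. Dok3, an adaptor that restrains Toll-like receptor signalling, was at 3.47 ± 1.58 and 0.640 ± 0.336 CPM, with a log2 difference of -2.43 ± 0.61 (SE) and an adjusted p of 0.12 by edgeR. A pair of relatives that bind the deubiquitinase A20 had opposite signs. Tnip2 was at 69.6, 50.7, 68.4 and 68.2 CPM in CD48hi and 33.3, 38.1 and 34.3 CPM in CD48-/lo libraries, and Tnip3 at 3.92, 10.2, 11.3 and 7.03 CPM and 39.3, 11.4 and 29.1 CPM. The groups of both did not overlap, though by a narrow margin for Tnip3, and the adjusted p was 0.181 and 0.163 by edgeR. DESeq2 called Dok3, Tnip2 and Tnip3.

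Of 20 inflammatory NF-kB target genes 13 were tested, 9 positive and 4 negative, with a median of 0.30. Il1a, which encodes interleukin-1 alpha, was at 0.771, 0.349, 0.597 and 0.909 CPM in CD48hi and 2.69, 3.97 and 4.85 CPM in CD48-/lo libraries. Each CD48-/lo library lay above each CD48hi library, with a log2 difference of 2.54 ± 0.51 (SE) and an adjusted p of 0.0787 by edgeR, the lowest of the 106 genes, and a call by DESeq2. Il1b, encoding interleukin-1 beta, was at 7.28 ± 2.23 and 14.9 ± 8.47 CPM, and Ier3, a stress response gene, at 8.99 ± 4.89 and 3.72 ± 1.99 CPM (adjusted p = 0.267 and 0.290, edgeR).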

How the data were processed

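RNA was measured in 7 libraries of sorted MkPs, 4 CD48hi and 3 CD48-/lo, made from amplified poly(A)-primed cDNA. The labels gave the groups and replicate numbers. Per the processing notes of the submitters, the authors used FastQC, GSNAP (2020-12-16) for alignment to mm10, with splice sites of Ensembl 98, and featureCounts (2.0.1), which counted each read with a unique alignment. The deposited values used here are raw counts, whole reads per gene with no normalization. Tables the authors normalised or derived were not used. Each of the 21615 genes has at least 11 counts in all.

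Counts were filtered with filterByExpr (16653 genes, 99.95% of counts) and TMM-scaled, and tests were made with the edgeR 4.0.16 quasi-likelihood F test in R 4.3.3, with Benjamini-Hochberg adjustment over all tested genes and a threshold of 0.05. Log2 differences use a prior count of 0.125. DESeq2 1.42.0, limma 3.58.1 with voom and library quality weights, other scalings and filters, a replicate block and leaving out each library were alternatives. The test was first checked on simulated data. The bound for a group without counts uses 3 counts over the group. CPM per kb divides by the deposited gene length. Named genes were all 7 members, the 3 smallest p of each list and the 5 profiles nearest to Tifab. Cd180 and Acaa1a, Ap1ar and Twf1 were added after their values were seen. The members and lists were chosen with earlier results of these data known. A marker of the sort check is not reported here.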

Additional observations from a re-analysis of the deposited data

Results flagged for a closer look

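The libraries of each group of 4 were searched for a value far from the others in 28 genes, the 7 of the route and the 21 named from the lists, and chance marks about 1 group in 20. None of the 7 genes was marked. Tnip2 stood apart in CD48hi replicate 3, at 50.7 CPM against 68.2 to 69.6 CPM in the other CD48hi libraries. Ly86 stood apart in the same library, at 3.57 CPM against 0.848 to 1.25 CPM in the others. No cause was tested for either.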

How the results depend on the processing

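The number of genes called across the table was 32 (14 higher, 18 lower in CD48-/lo MkPs) and depended on the processing. It was 57 with RLE scaling, 10 with no filter on low counts and 64 with a filter of 1 CPM in 3 libraries. DESeq2 gave 918, limma with voom and quality weights 393, and an adjusted p of 0.1 gave 187. Leaving out 1 library gave from 1 (without CD48hi replicate 3) to 72 (without CD48-/lo replicate 3). It was 15, 16 and 4 without CD48hi replicates 1, 4 and 5, and 11 and 3 without CD48-/lo replicates 1 and 4. The cause was not tested. Library totals alone gave 30 genes. With the replicate block over 6 libraries it was 29 genes. Deviations from the group means had correlations of -0.14, -0.27 and -0.08 between same-numbered libraries. With so few libraries behind each mean, these values cannot tell whether a shared number pairs samples, and the labels do not say. Of the pathway genes 0 were called, also with the replicate block, under either other scaling or filter and without any library. DESeq2 called 8, limma with voom and quality weights 4, and 2 were called at an adjusted p of 0.1.

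Tifab was called under each of these alternatives except without CD48hi replicate 3. The contrast served to choose Tifab, so nothing is read from these calls. Of 77 log2 differences of the 7 genes under the alternatives, 1 moved by more than the spread between replicates, that of Tifab with a prior count of 2, and 3 changed sign, all of Myd88, which was not called. The log2 difference ranged from -0.91 to -0.14 for Traf6, -0.75 to -0.51 for Irak4, -0.64 to -0.12 for Tifa, -0.77 to -0.13 for Alpk1 and 0.15 to 0.66 for Irak1. With 4 and 3 libraries and 0 Tifab counts in one group, the size of the Tifab difference is known only as a bound, and for Alpk1 the spread of low counts limits the precision.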
